A study of Mus musculus with 9 samples.

Results

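The genes described here carry out the clearance of apoptotic cells, also called efferocytosis, in mouse lung macrophages with and without the nuclear receptor Pparg. The 10 genes were fixed by name: Mertk, Axl, Tyro3, Gas6, Pros1, Mfge8, Trem2, Tyrobp, Elmo1 and Gulp1. Every probe of an Illumina bead array whose platform symbol was one of these names was taken, which gave 28 of the 46237 probes on the array. Of these 28 probes, 20 in 7 genes gave a detection p-value under 0.05 on at least 3 of the 9 arrays and entered the test, as did 21946 probes of the whole array. A detection p-value compares a probe with the array's background, and a probe under 0.05 is called above background below. Tyro3, Gas6 and Gulp1 had no such probe.

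The arrays formed 3 groups of 3, all from 8-week-old female C57/BL6 mice that carry LysMCre, a recombinase under a promoter active in myeloid cells in general. The first group, called Pparg-deficient below, was labelled as alveolar macrophages that lack Pparg from Pparg-/-.LysMCre mice, and its array titles call the cells "int pop". The second, called homozygous wild-type, was labelled as wild-type alveolar macrophages, "Mph" in the titles, from mice of the same Pparg-/-.LysMCre genotype. The third, called heterozygous wild-type, was labelled as wild-type alveolar macrophages, also "Mph", from Pparg-/+.LysMCre mice. Cells were sorted from lung by surface SiglecF and CD11b, and no source used here says how the homozygous mice yielded separate wild-type and deficient fractions. The titles place the Pparg-deficient arrays on 1 chip and both wild-type groups on another. Chip and Pparg deficiency therefore cannot be told apart, whereas homozygous against heterozygous wild-type cells is a comparison within 1 chip. The labels number the replicates but do not say that each is a separate mouse, so the p-values rest on a spread between samples that may be only technical.

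Efferocytosis begins when a phagocyte recognises phosphatidylserine exposed on a dying cell. Soluble bridging proteins such as Gas6, Pros1 and Mfge8 bind that lipid on one side and a receptor on the other. Gas6 and Pros1 engage the TAM receptor kinases Tyro3, Axl and Mertk, and Mfge8 engages alpha-v integrins. Trem2 is a lipid and lipoprotein receptor that signals through the membrane adaptor Tyrobp, also called DAP12. Elmo1 forms a complex with Dock1 that activates the GTPase Rac1 and drives engulfment, and Gulp1 is a cytosolic adaptor of engulfment receptors. Alveolar macrophages clear dying cells and surfactant from the airspaces, and Pparg is known to be needed for their differentiation.

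Mfge8 and Trem2 were the members whose signals differed between the groups, and their promoter windows are shown for that reason. The windows run from 250 bases before to 50 bases after the RefSeq gene start in GRCm38.p6, and are printed 5′ to 3′ on the gene's strand. Capitals mark matches, on either strand, to AGGTCA, the hexamer bound by nuclear receptors such as Pparg with its partner Rxr, or to GAGGAA, a core of sites of the macrophage factor PU.1.
Mfge8, chr7:79149011-79149310, minus strand: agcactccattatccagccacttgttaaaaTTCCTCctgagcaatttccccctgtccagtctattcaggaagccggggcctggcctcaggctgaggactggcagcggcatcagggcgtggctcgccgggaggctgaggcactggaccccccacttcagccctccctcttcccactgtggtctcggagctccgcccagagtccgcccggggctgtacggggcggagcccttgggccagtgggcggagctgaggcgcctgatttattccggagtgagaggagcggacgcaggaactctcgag
Trem2, chr17:48346151-48346450, plus strand: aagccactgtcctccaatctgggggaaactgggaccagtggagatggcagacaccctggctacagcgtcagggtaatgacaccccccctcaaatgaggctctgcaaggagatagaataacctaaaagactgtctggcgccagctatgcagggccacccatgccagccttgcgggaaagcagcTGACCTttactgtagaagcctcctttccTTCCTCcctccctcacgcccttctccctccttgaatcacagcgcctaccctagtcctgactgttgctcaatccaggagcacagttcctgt
In the Mfge8 window the capitals are a single reverse-strand GAGGAA at position -220. The Trem2 window held 1 reverse-strand AGGTCA at position -68 and 1 reverse-strand GAGGAA at position -40. A window was found for 9 of the 10 members, and Elmo1 had a second start, which made 10 windows. Both strands of each were searched. AGGTCA was found in the Trem2 window alone among the 10, and in 16.3% of all 32851 windows of this length. GAGGAA was found in the windows of Axl, Mfge8, Trem2 and the first Elmo1 start, and in 28.3% of all windows. The direct repeat of AGGTCA with 1 free base between the copies, known as DR1, which contains that hexamer, was in none of the 10 windows and in 0.0396% of all. These matches describe letters in these windows and do not show binding.

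The member probes were tested together with all 21946 passing probes in limma, with Benjamini-Hochberg adjustment over all of them. A probe was called higher or lower at an adjusted p under 0.05. Against heterozygous wild-type cells, 3 of the 20 member probes were called higher in Pparg-deficient cells, namely both Mfge8 probes and the Trem2 probe, and 0 were called lower, where 1.02% of all probes were called in either direction and 0.811% higher. Against the mean of both wild-type groups, 1 member probe, the second of Mfge8, was called higher, where 0.688% of all probes were called in either direction and 0.524% higher. Against homozygous wild-type cells alone, limma called 0 member probes, where 0.173% of all probes were called. An unadjusted limma p under 0.05 was reached by 2 of the 20 member probes, beside 1715 of all 21946 probes. Between homozygous and heterozygous wild-type cells limma also called 0 member probes, where 0.0228% of all probes were called. There, 4 of the 20 member probes had an unadjusted limma p under 0.05, beside 1400 of all 21946 probes. The 3 comparisons that involve Pparg-deficient cells share the same 3 deficient arrays, so their calls are not independent of each other.

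Counted by arrays that do not overlap, 6 member probes lay higher and 2 lower on all Pparg-deficient than on all heterozygous wild-type arrays, where 9.88% and 11.7% of all probes did. Against homozygous wild-type arrays 5 lay higher and 2 lower, where 6.09% and 6.23% of all probes did. Against all 6 wild-type arrays 4 lay higher and 1 lower, where 3.28% and 2.98% of all probes did. Homozygous lay apart from heterozygous wild-type arrays on 4 probes that were higher and 1 that was lower, where 5.46% and 6.7% of all probes did. The probes that lay higher belonged to Mfge8, Trem2 and Elmo1, and those that lay lower to Mertk, Axl and Pros1.

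The median log2 difference over the 20 member probes was 0.75 for Pparg-deficient against heterozygous wild-type cells, beside -0.11 over all probes. It was 0.23 against homozygous wild-type cells, beside -0.04 over all probes, and 0.27 for homozygous against heterozygous wild-type cells, beside -0.07. Elmo1 supplies 11 of the 20 probes and so weighs heavily on these medians. With 1 probe per gene, the median over 7 genes was -0.07 for Pparg-deficient against heterozygous wild-type cells, beside -0.12 over all genes. It was -0.10 against homozygous wild-type cells, beside -0.04, and 0.10 for homozygous against heterozygous wild-type cells, beside -0.07. For Pparg-deficient cells against both wild-type groups it was -0.09, beside -0.07, with 3 genes positive and 4 negative. The members thus lay on both sides of zero.

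**Figure D1:**
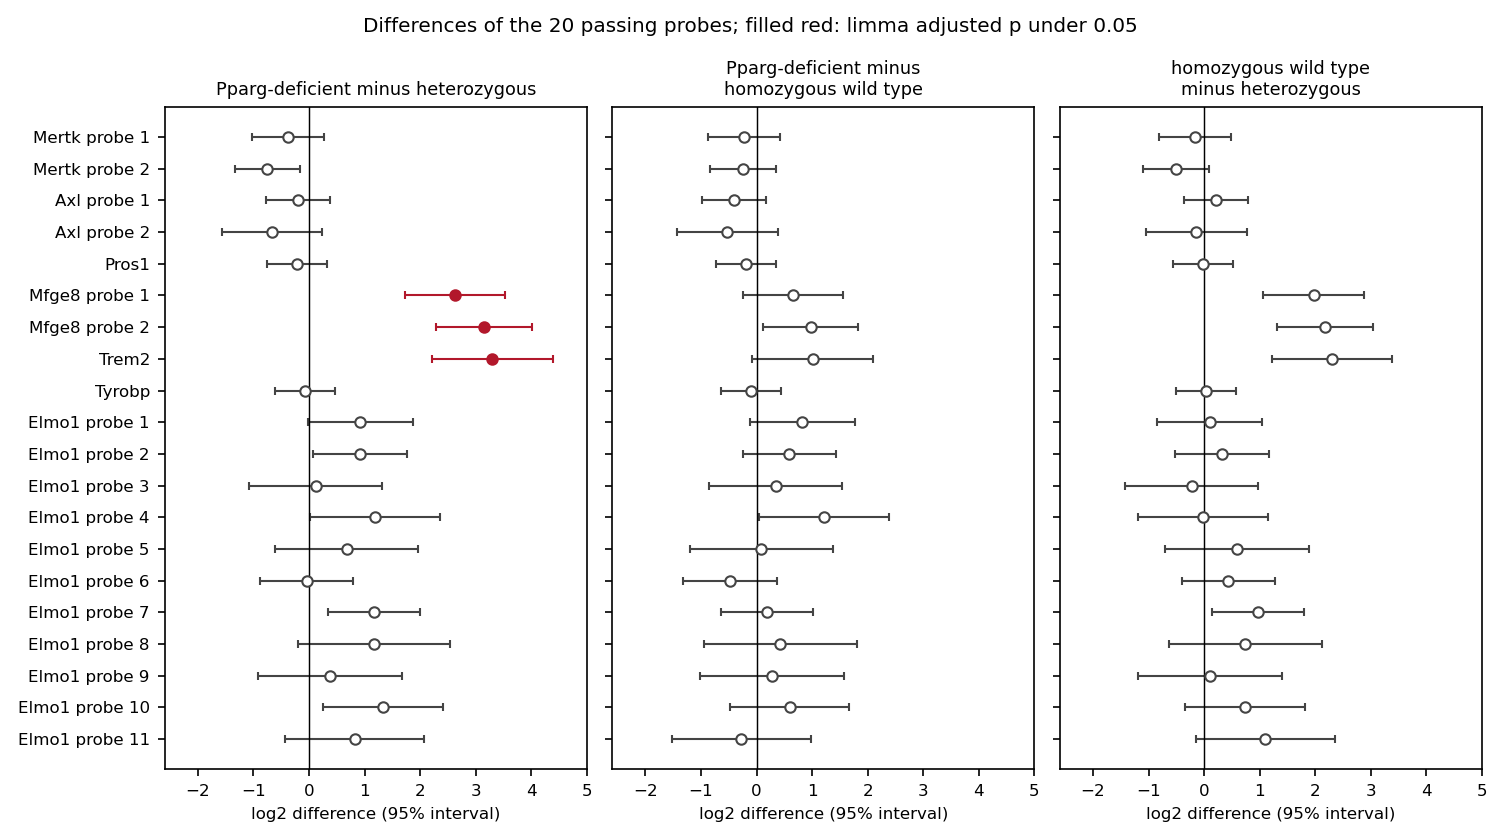
Log2 differences (horizontal axis) of the 20 member probes that passed the detection filter, in 3 panels: Pparg-deficient minus heterozygous wild-type, Pparg-deficient minus homozygous wild-type, and homozygous minus heterozygous wild-type cells. Points are limma estimates from 9 arrays, bars are 95% intervals, and filled red marks an adjusted p under 0.05: both Mfge8 probes and Trem2 in the first panel and no probe in the other 2.

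Among the bridging proteins, Mfge8 rose against heterozygous wild-type cells on both of its probes. Its brighter probe read 11.84, 11.74 and 11.78 log2 units in Pparg-deficient cells, 10.62, 11.25 and 11.52 in homozygous wild-type cells and 9.29, 8.34 and 9.85 in heterozygous wild-type cells, after background correction and quantile normalization. The 3 groups did not overlap, and the spread was narrowest in the deficient cells. The deposited, unnormalized signals of this probe lay in the same order, at 4062, 3694 and 3464 in Pparg-deficient cells, 1885, 2669 and 3170 in homozygous wild-type cells, and 826, 508 and 1130 in heterozygous wild-type cells. Its log2 difference from heterozygous wild-type cells was 2.63 (SE 0.405, 95% interval 1.72 to 3.53), a 6.17-fold higher signal with a limma adjusted p of 0.0165. This call was lost, at adjusted p-values of 0.0546 to 0.0872, when any 1 deficient array or heterozygous replicate 1 or 2 was left out or when dim probes were not filtered.

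The second Mfge8 probe read 10.48, 10.41 and 10.53 in Pparg-deficient cells, 8.80, 9.60 and 10.10 in homozygous wild-type cells, and 7.24, 6.88 and 7.86 in heterozygous wild-type cells. The order of the groups was the same, again without overlap. Its log2 difference from heterozygous wild-type cells was 3.15 (SE 0.384, 95% interval 2.29 to 4.00), or 8.85-fold, with a limma adjusted p of 0.00557. This call held in each of the 17 alternatives that could be run on the probe, with a largest adjusted p of 0.0406. Its size did not: the difference was 2.16, or 4.47-fold, with no background correction. The ratio of group means of the deposited signals, which are not normalized between arrays, was 3.92. Against both wild-type groups together the difference was 2.06 (SE 0.332), with an adjusted p of 0.0252. That call was lost in 8 of 17 alternatives, among them the omission of any 1 deficient array, of homozygous replicate 2, or of heterozygous replicate 1 or 2. In sorted bulk cells a change in the share of a cell type and a change in RNA per cell cannot be told apart.

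Homozygous wild-type cells stood between the other groups in Mfge8 signal. They exceeded heterozygous wild-type cells by 1.97 (SE 0.405, 95% interval 1.06 to 2.88) on the brighter probe and by 2.18 (SE 0.384, 95% interval 1.32 to 3.03) on the second, within 1 chip. The limma adjusted p-values over all probes were 0.283 and 0.164, so neither passed. On the authors' own normalized table the same 2 differences had adjusted p-values of 0.0309 and 0.0308. Pparg-deficient cells exceeded homozygous wild-type cells, which come from mice of the same genotype, by 0.66 (95% interval -0.25 to 1.56, adjusted p = 0.761) and 0.97 (95% interval 0.11 to 1.83, adjusted p = 0.570). Homozygous replicate 1 was the lowest and replicate 3 the highest of its group on both probes, and replicate 3 came within 0.5 log2 units of the deficient arrays.

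Pros1, the anticoagulant protein S that bridges to Mertk and Tyro3, lay in a narrow band. It read 9.69, 9.61 and 9.45 in Pparg-deficient cells, 9.83, 9.70 and 9.79 in homozygous wild-type cells, and 9.80, 9.73 and 9.86 in heterozygous wild-type cells. All 3 deficient arrays were below all 6 wild-type arrays, as 2.98% of all probes were. The difference from both wild-type groups was -0.20 (SE 0.207, 95% interval -0.67 to 0.26), with a limma adjusted p of 0.736. Gas6, the bridging ligand with the broadest TAM binding, was above background on 0 of the 9 arrays on its single probe.

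**Figure D2:**
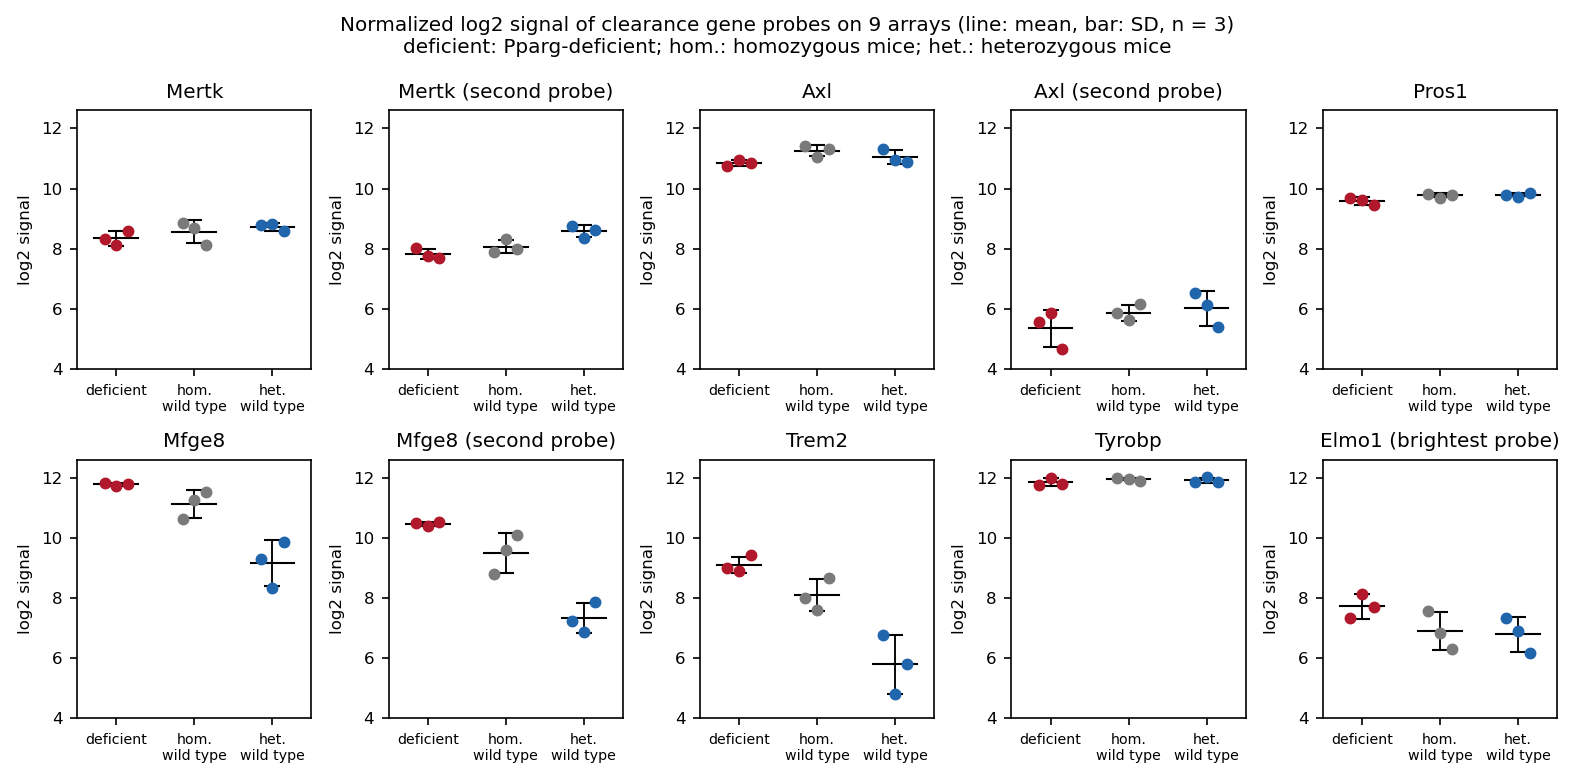
Normalized log2 signal (vertical axis, the same range in each panel) of the 9 passing probes of Mertk, Axl, Pros1, Mfge8, Trem2 and Tyrobp and of the brightest Elmo1 probe, on 3 arrays each of Pparg-deficient, homozygous wild-type and heterozygous wild-type cells. Points are arrays, lines are means and bars are SD: both Mfge8 probes and Trem2 fall in 3 separate steps across the groups, and Tyrobp is level.

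Of the receptors, Trem2 had the widest range between groups. It read 8.99, 8.91 and 9.41 log2 units in Pparg-deficient cells, 8.01, 7.61 and 8.67 in homozygous wild-type cells, and 6.77, 4.82 and 5.81 in heterozygous wild-type cells. The groups did not overlap, and heterozygous replicate 2 was not above background, with a detection p of 0.2. The deposited signals were 639, 623 and 749 in Pparg-deficient cells, 417, 438 and 605 in homozygous wild-type cells, and 296, 223 and 346 in heterozygous wild-type cells. The difference between Pparg-deficient and heterozygous wild-type cells was 3.30 (SE 0.484, 95% interval 2.22 to 4.38), or 9.86-fold, with a limma adjusted p of 0.0138.

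The size of the Trem2 difference changed with the processing. The ratio of group means of the deposited signals was 2.32 for Pparg-deficient over heterozygous wild-type cells. Those signals are neither background corrected nor normalized between arrays. Over 18 alternatives the log2 difference ranged between 1.54 and 3.79 and was always positive. The call was lost without dim-probe filtering (adjusted p = 0.0596), without heterozygous replicate 3 (0.0610), and without deficient replicate 1 (0.0789), 2 (0.0608) or 3 (0.0514). Against both wild-type groups together the difference was 2.15 (SE 0.419), with an adjusted p of 0.0606, which did not pass. It passed with no background correction (adjusted p = 0.00474), with a background correction that made no use of detection p-values (0.00919), on the authors' normalized table (0.00417) and without heterozygous replicate 1 (0.0321).

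Trem2 also differed by 2.29 (SE 0.484, 95% interval 1.21 to 3.38) between homozygous and heterozygous wild-type cells, with a limma adjusted p of 0.294. Between Pparg-deficient and homozygous wild-type cells the difference was 1.01 (SE 0.484, 95% interval -0.08 to 2.09), with an adjusted p of 0.668. Both Mfge8 probes and the Trem2 probe were the only 3 of 20 member probes in which every deficient array exceeded every homozygous wild-type array, and each of those every heterozygous one. That order without overlap held for 0.633% of all probes, and the opposite order for 0.319%. The signals of Mfge8 and Trem2 correlated with a Pearson r of 0.94 over the 9 arrays, which share groups and chips.

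The TAM receptors did not pass the test. Axl, which is the TAM receptor known for its role in alveolar macrophages, was bright on its first probe, at 10.75, 10.94 and 10.86 in Pparg-deficient cells, 11.40, 11.06 and 11.32 in homozygous wild-type cells, and 11.30, 10.96 and 10.89 in heterozygous wild-type cells. The deficient arrays were all below the homozygous ones and overlapped the heterozygous ones. The difference from homozygous wild-type cells was -0.41 (95% interval -0.98 to 0.17, adjusted p = 0.767) and from heterozygous wild-type cells -0.20 (95% interval -0.77 to 0.38, adjusted p = 0.765). The second Axl probe was dim, between 4.65 and 6.53 on all arrays, and its groups overlapped, with a difference from both wild-type groups of -0.60 (95% interval -1.38 to 0.19).

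Mertk, the TAM receptor most closely tied to macrophage efferocytosis, gave 8.32, 8.11 and 8.60 on its brighter probe in Pparg-deficient cells, 8.86, 8.70 and 8.14 in homozygous wild-type cells, and 8.78, 8.83 and 8.57 in heterozygous wild-type cells. These groups overlapped. Its second probe gave 8.03, 7.76 and 7.70 in Pparg-deficient cells, 7.89, 8.33 and 8.00 in homozygous wild-type cells, and 8.74, 8.36 and 8.64 in heterozygous wild-type cells. On this probe both the deficient and the homozygous arrays lay below all heterozygous ones. The difference between Pparg-deficient and heterozygous wild-type cells was -0.38 (95% interval -1.03 to 0.26, adjusted p = 0.579) on the brighter probe and -0.75 (95% interval -1.34 to -0.16, adjusted p = 0.270) on the second. Tyro3, the remaining TAM kinase, was above background on 0 of 9 arrays.

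Among the adaptors, Tyrobp, the signalling partner of Trem2, was close to level. It read 11.75, 11.99 and 11.79 in Pparg-deficient cells, 11.98, 11.96 and 11.90 in homozygous wild-type cells, and 11.87, 12.01 and 11.87 in heterozygous wild-type cells, with all groups overlapping. The difference from heterozygous wild-type cells was -0.07 (SE 0.239, 95% interval -0.61 to 0.46, limma adjusted p = 0.917). This interval rests on a spread between samples that may be only technical, and chip is not separated from deficiency in it. The sign of that difference turned, at 0.01, when arrays were not normalized to each other.

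Elmo1 was represented by 14 probes, and 11 of them passed the filter, 4 of which were above background on all 9 arrays. The brightest read 7.32, 8.14 and 7.69 in Pparg-deficient cells, 7.57, 6.82 and 6.30 in homozygous wild-type cells, and 7.33, 6.89 and 6.17 in heterozygous wild-type cells, with overlapping groups. Its difference from both wild-type groups was 0.87 (SE 0.367, 95% interval 0.05 to 1.69), with a limma adjusted p of 0.387. Over the 11 probes, 10 differences from both wild-type groups were positive and 1 negative, with a median of 0.68 and a range of -0.26 to 1.20, and the smallest adjusted p was 0.342. Probes of 1 gene share its RNA and are not replicates, so this count has no test. The 3 groups were separate from each other on none of them.

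The Elmo1 signals also differed between arrays of 1 group. Averaged over the 11 probes, the log2 signal was 6.74, 6.88 and 6.26 on the Pparg-deficient arrays, 6.89, 6.23 and 5.73 on the homozygous wild-type arrays, and 6.03, 5.88 and 5.62 on the heterozygous wild-type arrays. Homozygous replicate 1 equalled the highest deficient array to 0.01 log2 units, and 13 of the 14 probes were above background on it. The others had 11, 11 and 10 in Pparg-deficient cells, 11 and 9 in the remaining homozygous wild-type cells, and 10, 8 and 7 in heterozygous wild-type cells. On the deposited signals, without normalization, the ratio of group means of Pparg-deficient over heterozygous wild-type cells was between 0.69 and 0.99 over the 11 probes. Such ratios carry the scale of the arrays, whose median unnormalized signal was lower on every Pparg-deficient than on every heterozygous array. The probes of Tyro3, Gas6 and Gulp1, never above background, gave ratios of 0.68 to 0.84. Without normalization between arrays but with background correction, 8 of 11 differences from both wild-type groups were positive and 3 negative, with a median of 0.35. The median was 0.18 with no background correction and 0.14 on the authors' normalized table. Gulp1 was above background on 0 of 9 arrays on each of its 3 probes.

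**Figure D3:**
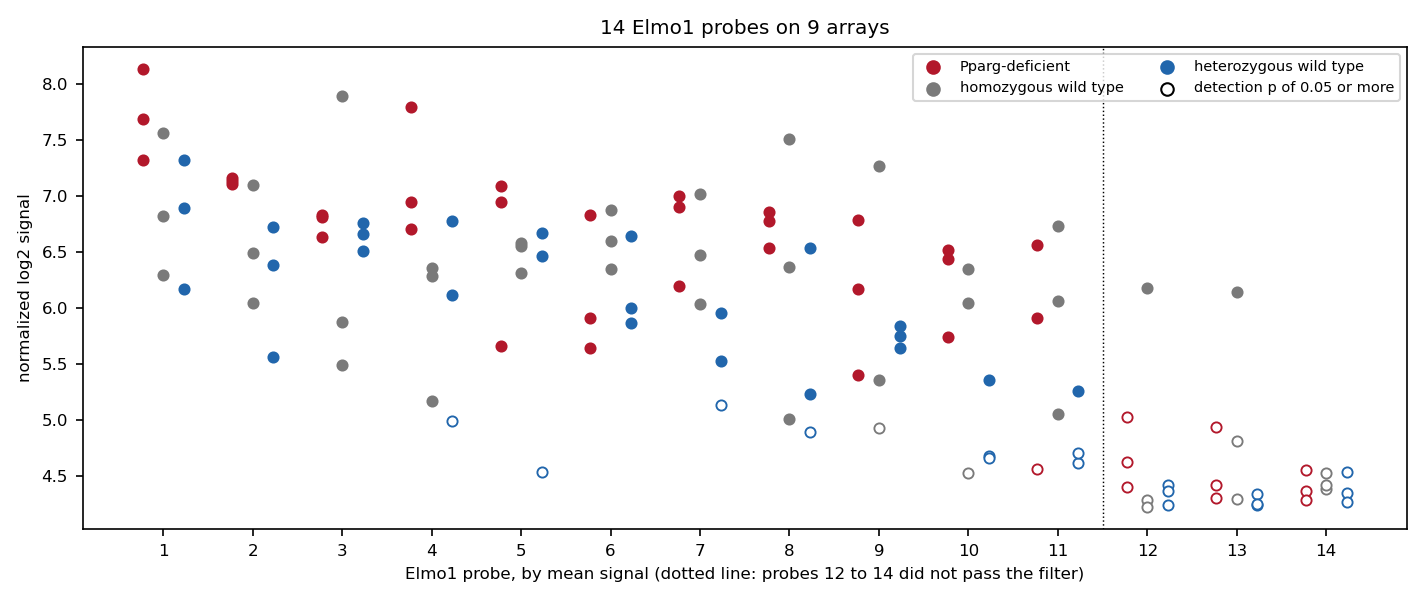
Normalized log2 signal (vertical axis) of the 14 Elmo1 probes, ordered by mean signal (horizontal axis), with each array of Pparg-deficient, homozygous wild-type and heterozygous wild-type cells as a point. Open points were not above background. On most of the 11 passing probes the 3 groups overlap, and 2 of the 3 probes past the dotted line were above background on homozygous replicate 1 alone.

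The 5 probes of Tyro3, Gas6 and Gulp1 lay at 4.17 to 4.91 log2 units in Pparg-deficient cells, 4.18 to 4.55 in homozygous wild-type cells, and 4.19 to 4.66 in heterozygous wild-type cells. These values are near the floor set by the background correction, and no order among them is read. Gas6 lay higher on all Pparg-deficient than on all homozygous wild-type arrays, without being above background on any. No difference was computed for these genes, and a level under the array's background was not detectable here.

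The genes whose signal followed a member most closely were named for the 3 members that varied most over the 9 arrays, among 12245 other genes with a passing probe. For Trem2, whose SD over the arrays was 1.57, they were Pde4a, a cAMP phosphodiesterase (r = 0.98), Fem1b, a ubiquitin ligase substrate receptor (0.98), and the homeobox gene Mkx (0.96). For Mfge8, with an SD of 1.27, they were Pid1 (r = 0.99), the annexin Anxa3 (0.97) and Grn, which encodes the lysosomal protein progranulin (0.97). For Elmo1, with an SD of 0.65, they were Socs2, an inhibitor of cytokine signalling (r = 0.95), the esterase Esd (0.94) and Thumpd1 (0.92). These are Pearson correlations over 9 arrays in 3 groups, and high values are reached by any gene with the same steps between groups.

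The rest of the pathway was taken from 6 lists of 94 other genes, of which 80 had a passing probe. In Pparg-deficient cells against both wild-type groups 3 of the 80 rose and 0 fell, where 0.555% of all 12246 genes were called higher by their brightest passing probe. The same 3 rose against heterozygous wild-type cells, where 0.784% of all genes were called higher. They were Apoe, C1qb and Cd24a. By arrays that do not overlap, 9 of the 80 genes lay higher and 4 lower on all Pparg-deficient than on all wild-type arrays, where 3.58% and 3.3% of all genes did. The median log2 difference over the 80 genes was 0.05 against both wild-type groups, with 45 positive and 35 negative, and 0.04 against heterozygous wild-type cells. Limma called 0 of the 80 against homozygous wild-type cells alone, and 0 between homozygous and heterozygous wild-type cells, where the median was 0.09.

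Among lists by role, 1 of 10 other bridging proteins rose against both wild-type groups, and 0 of 18 other receptors, 0 of 19 engulfment genes and 0 of 19 digestion genes were called. The inhibitory list, of signals that mark a cell as not to be eaten, had 1 of 4 genes higher, and the list of Trem2 ligands and downstream kinases had 1 of 10 higher. None of these lists had a gene called lower. Beside the share of all genes called, counts of 0 or 1 in lists of these sizes say nothing about a list.

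Apoe, an apolipoprotein that is a ligand of Trem2, had the largest of these differences with a measured value in each group. It read 11.78, 11.49 and 11.50 log2 units in Pparg-deficient cells, 9.02, 10.13 and 10.36 in homozygous wild-type cells, and 6.89, 8.04 and 7.67 in heterozygous wild-type cells. The groups followed the order of Mfge8 and Trem2 without overlap. The difference from heterozygous wild-type cells was 4.06 (SE 0.418), or 16.6-fold, with a limma adjusted p of 0.00228, and it passed in all 18 alternatives. With no background correction it was 3.08, or 8.44-fold. The difference between homozygous and heterozygous wild-type cells was 2.30 (SE 0.418), with an adjusted p of 0.180, and of 0.0309 on the authors' normalized table. Against both wild-type groups the difference was 2.90 (SE 0.362, adjusted p = 0.00698), a call that was lost without deficient replicate 1 (0.0709) or 2 (0.0523) and with both wild-type groups fitted as 1 group (0.127). Against homozygous wild-type cells it was 1.75 (adjusted p = 0.233), which passed with no background correction (0.0231), with normexp without detection p-values (0.0487) and on the authors' normalized table (0.0154).

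C1qb, a chain of the complement protein C1q that opsonises dying cells, read 10.15, 8.23 and 8.58 in Pparg-deficient cells and 5.79, 6.77 and 7.81 in homozygous wild-type cells, and was not above background on any heterozygous wild-type array. After the background correction used here it was at least 16.9-fold higher in Pparg-deficient than in heterozygous wild-type cells, with a limma adjusted p of 0.00542 that passed in all 18 alternatives. The bound holds for that correction alone: with no background correction the fitted difference was 2.27, or 4.81-fold. The fitted difference of 4.80 became 4.22 without deficient replicate 1. Against both wild-type groups its adjusted p was 0.0143, which was lost without deficient replicate 1 (0.0789), with no filter (0.0727) and with both wild-type groups fitted as 1 group (0.126). Its partner chains were uneven: C1qa read 8.76, 4.28 and 7.35 in Pparg-deficient cells, 7.17, 6.65 and 6.41 in homozygous wild-type cells, and 7.17, 6.31 and 6.37 in heterozygous wild-type cells. Cd24a, a surface glycoprotein that can act as a signal against engulfment, read 6.83, 6.53 and 6.03 in Pparg-deficient cells and 5.63, 5.51 and 5.02 in homozygous wild-type cells, and was not above background on any heterozygous array. Its difference from both wild-type groups was 1.47 (SE 0.266, adjusted p = 0.0448), a call that was lost in 15 of 18 alternatives, and it was at least 2.95-fold higher than in heterozygous wild-type cells (adjusted p = 0.0227), a call lost in 7 of 18. On the authors' normalized table that difference was 0.44, or 1.36-fold, which is below the bound. Such a bound compares the bright group's mean with a level for the dim group. On each array that level is the lowest signal of any probe above background, or the dim probe's own where higher.

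**Figure D4:**
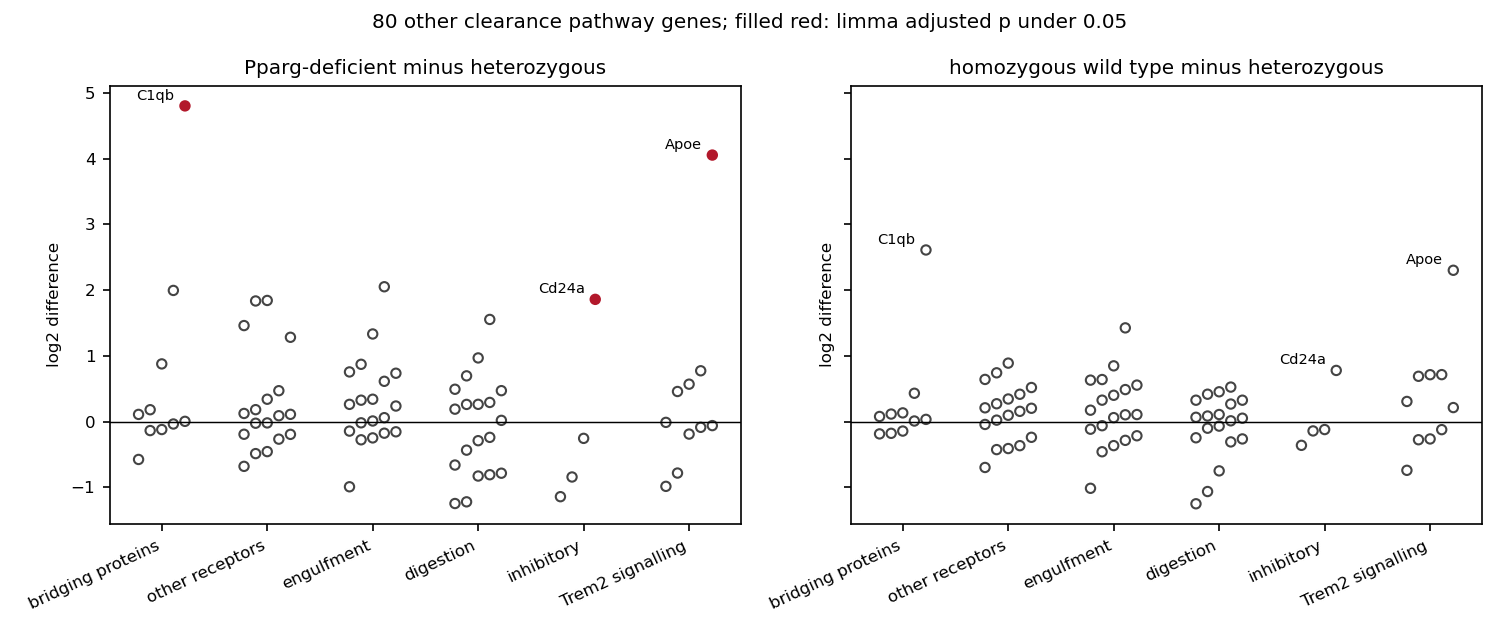
Log2 differences (vertical axis) of 80 other clearance genes by list (horizontal axis), for Pparg-deficient minus heterozygous wild-type cells and for homozygous minus heterozygous wild-type cells. Each point is the brightest passing probe of a gene and filled red marks a limma adjusted p under 0.05, which C1qb, Apoe and Cd24a reached in the first panel. The heterozygous values of C1qb and Cd24a were not above background, so their plotted heights are fitted values and not bounds.

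The labelled cell identity and the targeted gene were read on the same arrays. The brightest Pparg probe read 7.58, 7.23 and 7.76 in Pparg-deficient cells, 9.71, 9.15 and 8.13 in homozygous wild-type cells, and 9.46, 9.36 and 9.55 in heterozygous wild-type cells, with a difference from both wild-type groups of -1.70 (SE 0.339, limma adjusted p = 0.0654). Its other probes differed by -1.58 (limma adjusted p = 0.280) and -0.82 (0.373), and on them deficient and wild-type arrays overlapped. No source used here says whether a probe lies in the deleted exons. Homozygous replicate 3, which had the highest Mfge8 and Trem2 signals among the wild-type arrays, also had the lowest Pparg signal among them. Homozygous replicate 1 had the highest Pparg signal of the wild-type arrays, and its Mfge8 and Trem2 signals exceeded those of every heterozygous array. A link between these signals was not tested. Of 12 alveolar macrophage markers with a probe, 8 were above background on all 9 arrays, Fabp4 was on 0 of them, and Siglecf, which was used in the sort, Marco and Cidec fell in Pparg-deficient cells against both wild-type groups. These were 3 of 10 measured genes, of which 7 had negative and 3 positive differences. Of all passing probes, 0.688% were called in either direction. On all deficient against all wild-type arrays 2 of the 10 lay higher and 5 lower, where 3.58% and 3.3% of all genes did. The 2 were Itgax (0.54) and Slc7a2 (0.95), which did not pass, and Plet1 differed by 0.04. Krt79 was above background on the heterozygous arrays alone and was called lower in Pparg-deficient than in heterozygous wild-type cells (-2.55, limma adjusted p = 0.00919). The mean log2 signal of that list was 7.73 to 7.85 in Pparg-deficient cells, 8.22 to 8.29 in homozygous wild-type cells and 8.57 to 8.67 in heterozygous wild-type cells.

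Markers of other cells were read on the same arrays, as sums of normalized linear signals unless stated. The summed signal of 12 monocyte and interstitial macrophage markers was 745 to 2521 in Pparg-deficient cells, 504 to 706 in homozygous wild-type cells and 435 to 498 in heterozygous wild-type cells. That sum includes C1qb itself, and without it the 11 others gave 446 to 1389 in Pparg-deficient cells, 449 to 481 in homozygous wild-type cells and 417 to 481 in heterozygous wild-type cells, so that these sums overlapped. The mean log2 signal of all 12 markers, C1qb included, did not overlap between groups. C1qb by itself did not overlap between them either, so no separation of the 11 others is read from this mean. The mean was 5.32 to 6.41 in Pparg-deficient cells, 5.05 to 5.29 in homozygous wild-type cells and 4.86 to 4.97 in heterozygous wild-type cells. In that order of groups, the markers were above background 19, 12 and 10 times. C1qb alone of the 6 measured genes was called, while 5 of the 6 differences from both wild-type groups were positive and 1 was negative. C1qc differed by 1.96, Cx3cr1 by 1.11 and Tmem119 by 0.27, and C1qc, like C1qb, lay higher on all deficient than on all wild-type arrays. Folr2 differed by -0.39 and C1qa by 0.11 from both wild-type groups, and Ccr2, Lyve1, F13a1 and Pf4 were above background on 0 arrays. Cd163 and Itgam did not pass the filter and have no difference. Cd163 was above background on 2 Pparg-deficient and 0 wild-type arrays, and lay higher on all deficient than on all wild-type arrays. Itgam, the gene of CD11b, which was used in the sort, was above background on deficient replicate 1 alone, at 7.53. Its deficient and wild-type arrays overlapped. The summed signal of 9 neutrophil markers was 474 to 536 in Pparg-deficient cells, 436 to 658 in homozygous wild-type cells and 287 to 323 in heterozygous wild-type cells. Without Mmp8 the other 8 gave 236 to 319 in Pparg-deficient cells, 283 to 337 in homozygous wild-type cells and 267 to 301 in heterozygous wild-type cells, again with overlap. Mmp8 alone of the 4 measured genes rose in Pparg-deficient cells against both wild-type groups (adjusted p = 0.0224), and it was also higher in homozygous than in heterozygous wild-type cells (adjusted p = 0.0231). S100a8 differed by 1.33, Camp by -0.70 and Csf3r by -0.59 without passing, and Cxcr2, Retnlg, Ngp and Ltf were above background on 0 arrays. Of 8 measured epithelial markers, Hopx alone was called higher against both wild-type groups (limma adjusted p = 0.0104), with 4 differences positive and 4 negative. Sftpc and Ager were above background on every array and overlapped between groups. Against heterozygous wild-type cells, Vwf of 7 endothelial and stromal markers (0.0204) and Csf1r of 5 general macrophage markers (0.0259) were called higher. The part of these other cells in the Mfge8, Trem2, Apoe and C1qb differences was not tested.

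The arrays had similar shares of probes above background. Their median unnormalized signals differed, and were higher on every heterozygous wild-type than on every Pparg-deficient array. Between 37.8% and 42.5% of probes were above background on an array. The median unnormalized signal was 146.2 to 184.2 in Pparg-deficient cells, 145 to 241.7 in homozygous wild-type cells and 198.4 to 290.3 in heterozygous wild-type cells. Arrays of 1 group correlated with a median r of 0.855 over 9 pairs, and arrays of different groups with 0.825 over 27 pairs. No 2 arrays held identical values. The number of arrays, 3 in each group, limits the precision of every value above.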

How the data were processed

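Gene expression was measured in 9 sorted lung macrophage samples, 3 in each group, on 1-colour Illumina bead arrays after amplification and biotin labelling, per the labels' protocols. The deposited table, not normalized per its name, gives each probe a linear signal intensity and a detection p-value on every array, per the file headers; scanner, software and genome build are not given in the sources used here. A second table of intensity values normalized by the authors by an unstated method served as an alternative; it was linear and not centred, with medians of 193.1 to 203.2 and a rank correlation with the raw signals of at least 0.9997 on each array.

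Signals were corrected with limma 3.58.1 in R 4.3.3 (nec, normexp with background statistics from the detection p-values, offset 16), quantile normalized and log2 transformed. The deposited detection p-values are not exact ranks among negative controls, which limits that background estimate. Probes with detection p under 0.05 on at least 3 arrays were kept. A fit per probe with 1 mean per group used lmFit and eBayes over all 9 arrays, without covariates. Pandas 2.3.3 and scipy 1.17.1 made the tables.

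Symbols came from the platform table: 35784 probes had 1 symbol, 0 several and 10453 none. Symbols were updated by gene ID (28620) or accession (2637), or kept (4527). A gene's values are those of its passing probe with the highest mean, and other probes of a member are given beside it. Pathway genes were named where their probe was called in any comparison, together with the 2 of smallest p; C1qa and the marker genes printed were added after their values were seen. Members, lists and tests were chosen with earlier results of these data known. Same-numbered replicates did not deviate together in every pair of groups (correlations of -0.06 to 0.24), and the numbers were not taken to pair samples. The titles give same-numbered Pparg-deficient and homozygous wild-type arrays a shared name, so these could come from the same mouse, which the labels do not say. Their correlations of 0.18, -0.06 and 0.15 do not settle this. Fits with the replicate number as a block are given below. Alternatives changed the background correction, normalization, filter, probe choice, grouping, replicate block or 1 array at a time. The fit was tested on simulated data.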

Additional observations from a re-analysis of the deposited data

How the results depend on the processing

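Counts of member probes called in Pparg-deficient cells against both wild-type groups, 1 as reported, became 3 with no background correction, 3 with normexp without detection p-values, 3 on the authors' table, and 0 with no filter, with 1 probe per gene or with both wild-type groups as 1 group; leaving out 1 array gave 0 to 1. Against heterozygous wild-type cells, 3 as reported, the count was 1 with no filter and 1 to 3 with an array left out (1 without any 1 deficient array). Against homozygous wild-type cells it was 0 in every alternative run. Homozygous against heterozygous wild-type cells, 0 as reported, gave 2 on the authors' table, both Mfge8 probes.

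Over all probes, the 151, 224, 38 and 5 calls of these comparisons, in that order, became 406, 519, 90 and 9 with no background correction, and 385, 469, 86 and 17 on the authors' table. Normexp without detection p-values gave 306, 419 and 69 in the first 3, and 1 probe per gene gave 94, 129 and 24. No filter gave 148 against heterozygous wild-type cells. Against homozygous wild-type cells, a fit of those groups alone gave 7. In homozygous against heterozygous wild-type cells no filter gave 2, no normalization between arrays 3, and a fit of those groups alone 3. Leaving out 1 array gave 26 to 183, 52 to 285, 2 to 32 and 1 to 9. With the replicate number as a block the all-probe counts were 113, 163, 25 and 3, and 0 in a block fit of the 6 deficient and homozygous arrays; the member counts stayed at 1, 3, 0 and 0. The causes were not tested.

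Small differences changed sign. Between homozygous and heterozygous wild-type cells, Pros1, at -0.02 with the settings used, gave 0.13 without normalization between arrays, 0.015 on the authors' table and -0.055 to 0.014 with 1 array left out. With 1 array left out, Mertk gave -0.31 to 0.053, the second Axl probe -0.46 to 0.12, and Elmo1 -0.23 to 0.40. Tyrobp in Pparg-deficient against heterozygous wild-type cells gave 0.0058 without normalization between arrays, which moved the median of all probes there to -0.37. Mfge8, Trem2, Apoe, C1qb and Cd24a kept their direction in every alternative run. Signals near background limit Trem2, Cd24a, C1qb and most Elmo1 probes.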

Other observations

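Of the 13 other clearance genes whose Pparg-deficient arrays did not overlap with the 6 wild-type arrays, 10 did not pass the test, and 4 of these are described here, chosen after their values were seen. The remaining 6 were Cybb (0.75), Odc1 (0.44) and Lamp2 (0.22), which lay higher, and Pik3ap1 (-0.85), Arhgap25 (-0.81) and Map1lc3b (-0.31), which lay lower, with log2 differences from both wild-type groups in parentheses. Timd4, a phosphatidylserine receptor of resident macrophages, read 7.08, 6.17 and 5.75 log2 units in Pparg-deficient cells and 4.41, 5.38 and 5.26 in homozygous wild-type cells, and was not above background on any heterozygous wild-type array; its difference from both wild-type groups was 1.58 (limma adjusted p = 0.0914). Cd93, first described as a C1q receptor, read 9.86 to 10.12 in Pparg-deficient cells, 8.02, 9.33 and 9.33 in homozygous wild-type cells, and 8.13, 7.70 and 8.63 in heterozygous wild-type cells, a difference of 1.47 (adjusted p = 0.114). Cd47, the surface signal that restrains phagocytes through Sirpa, read 9.18, 9.09 and 8.89 in Pparg-deficient cells, 9.97, 9.74 and 9.55 in homozygous wild-type cells, and 9.87, 9.88 and 9.94 in heterozygous wild-type cells, a difference of -0.77 (adjusted p = 0.182). C1qc was above background on the 3 Pparg-deficient arrays only, at 8.43, 6.34 and 5.19, with an adjusted p of 0.215 against both wild-type groups.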
